A study of Homo sapiens with 8 samples.

Results

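The caveolins and cavins are taken here as 8 genes: the caveolins CAV1 and CAV2, the cavins PTRF (cavin-1), SDPR (cavin-2) and PRKCDBP (cavin-3), the membrane-bending ATPase EHD2, and the F-BAR proteins PACSIN2 and PACSIN3. They were chosen by name, as the coat, scaffold and neck proteins of caveolae, and were found under these symbols among the 36779 genes of the tables of counts. All 8 were measured in all 8 libraries, and all 8 passed the filter on low values that left 17877 genes for testing. PTRF and PRKCDBP passed it through DU145 alone, so these genes had to differ between the lines to be tested. The study asked what ectopic expression of either of a pair of circular RNAs (circRNAs, RNAs closed into a covalent ring) does to the transcripts of prostate cancer cells. DU145 and PC3 are established human lines grown from metastases of prostate carcinoma. Each line gave 4 libraries of total RNA: circ0003553 plasmid, the negative control plasmid of that arm (the titles of this arm name RCAN3), circ0004592 plasmid, and the negative control plasmid of the second arm (titles name STK3). Every library therefore came from transfected cells. Plasmid doses and the time after transfection are not given in the sources used here, and nothing in the labels says that the control libraries of a line were separate cultures, so the p-values measure the spread between these samples, which may be technical.

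Caveolae are small flask-shaped pits of the plasma membrane, common in endothelium, fat, muscle and fibroblasts, that buffer membrane tension and hold signalling proteins. CAV1 forms the membrane-inserted coat, and CAV2 joins it in hetero-oligomers. Cavin-1 is the soluble scaffold without which caveolae do not form, and cavin-2 and cavin-3 bind to it and shape or tune the pit. EHD2 forms rings at the neck and holds the caveola at the surface, and the PACSINs bend membrane while the pit is built. In prostate cancer cells, PC3 is a textbook line that makes CAV1 protein but no cavin-1, and so has caveolin without caveolae.

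The sequences before the starts of CAV1, CAV2, SDPR and EHD2 are shown because SDPR rose with circRNA in PC3 and the others were lower. Whether the sequences bear on these changes was not tested. The sequences are the 250 bases before a start in the RefSeq promoter table (GRCh38.p14), read 5′ to 3′ on the gene's own strand. Where a gene had several starts, the one nearest the 5′ end of its deposited coordinates was taken. The windows shown reach into the deposited genes, and that of CAV2 lies wholly inside it. The table matched 5 of the 8 members (these 4 and PACSIN2). Capitals mark matches on either strand to any of 6 motifs. The GC box was searched as GGGCGG. The TEAD motif was searched as GGAATG. The AP-1 motif was searched as TGACTCA. The STAT and interferon response motif was searched as a repeat of GAAA spaced by any pair of bases. The TATA motif was searched as TATAAA. The CCAAT box was searched under its own letters. Motif matches of different kinds could overlap.
CAV1 chr7:116524759-116525008 (plus strand): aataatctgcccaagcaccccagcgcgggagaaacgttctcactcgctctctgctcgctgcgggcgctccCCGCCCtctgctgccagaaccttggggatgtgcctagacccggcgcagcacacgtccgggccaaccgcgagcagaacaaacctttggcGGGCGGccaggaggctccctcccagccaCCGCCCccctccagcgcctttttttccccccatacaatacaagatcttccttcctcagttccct
CAV2 chr7:116499488-116499737 (plus strand): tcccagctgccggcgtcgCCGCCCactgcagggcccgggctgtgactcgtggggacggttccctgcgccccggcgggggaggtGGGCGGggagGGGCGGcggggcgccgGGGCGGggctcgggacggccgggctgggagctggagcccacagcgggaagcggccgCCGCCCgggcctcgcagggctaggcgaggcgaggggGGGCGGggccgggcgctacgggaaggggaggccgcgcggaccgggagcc
SDPR chr2:191847089-191847338 (minus strand): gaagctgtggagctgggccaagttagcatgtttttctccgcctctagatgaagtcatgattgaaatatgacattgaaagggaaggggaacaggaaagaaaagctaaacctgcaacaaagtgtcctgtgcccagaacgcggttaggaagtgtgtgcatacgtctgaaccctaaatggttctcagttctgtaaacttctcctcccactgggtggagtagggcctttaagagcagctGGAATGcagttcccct
EHD2 chr19:47713172-47713421 (plus strand): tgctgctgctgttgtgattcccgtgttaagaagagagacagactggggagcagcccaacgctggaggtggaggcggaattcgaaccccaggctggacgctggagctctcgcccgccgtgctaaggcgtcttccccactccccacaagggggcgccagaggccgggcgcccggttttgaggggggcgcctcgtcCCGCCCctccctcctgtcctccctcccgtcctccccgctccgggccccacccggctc

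The CAV1 window held 3 GC boxes, at 180, 92 and 64 bases before the start, and the CAV2 window, which is 83.2% G and C, held 6. A single GC box stood 57 bases before the EHD2 start. The SDPR window, 48.0% G and C against a median of 58.0% over 35116 promoter windows, held no GC box and 1 TEAD match, 16 bases before the start. The PACSIN2 window held 2 GC boxes and 3 CCAAT matches. No AP-1, STAT and interferon response or TATA match was found in the 5 windows. Over all 35116 windows, 42.6% held a GC box, 11.9% the TEAD letters, 4.2% the AP-1 letters, 3.0% the STAT and interferon response letters, 10.7% the TATA letters and 32.0% CCAAT. These are matches of letters, and no binding was measured.

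In the deposited hg38 coordinates, CAV1 lies at chr7:116524785-116561184 and CAV2 just before it at chr7:116287380-116508541, both on the plus strand. PTRF is at chr17:42402452-42423517, SDPR at chr2:191834302-191847255, PRKCDBP at chr11:6318946-6320647, PACSIN2 at chr22:42835412-43015145 and PACSIN3 at chr11:47177525-47186443, all on the minus strand, and EHD2 at chr19:47713343-47743134 on the plus strand. Exons of 3 members overlap exons of another gene. CAV2 overlaps AC002066.1 and SDPR overlaps AC098617.1 on the opposite strand, and PACSIN2 overlaps ARFGAP3 on the same strand. Whether counting used strand is not given in the sources used here. Reads in the exon stretches that an opposite pair shares therefore cannot be told apart.

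Library totals ran from 33444940 to 49926342 counts, and the labels were checked against genes known to mark each line and other cell types. CTNNA1, known to be deleted in PC3, stood at between 393 and 431 CPM (counts per 1000000 counts of the library total after scaling by its TMM factor) in DU145 and at between 3.84 and 4.60 CPM in PC3. The 4 epithelial markers EPCAM, KRT8, KRT18 and CDH1 summed to between 2918 and 3839 CPM in DU145 and to between 537 and 604 CPM in PC3, where CDH1 was at most 1.17 CPM. The prostate luminal marker KLK3 was at 0 in DU145 and at most 0.0300 CPM in PC3. Markers of cell types rich in caveolae were mixed in level. The 4 endothelial markers summed to between 0.522 and 0.726 CPM in DU145 and to between 5.55 and 6.32 CPM in PC3, nearly all PECAM1, with CDH5 at most 0.220 CPM and VWF at most 0.176 CPM. The fibroblast markers in the tables (4 of 5) summed to between 1.93 and 2.91 CPM in DU145 and to between 21.9 and 27.4 CPM in PC3, nearly all COL1A1, with COL1A2 at 0 in all PC3 libraries. The muscle markers summed to between 2.06 and 3.59 CPM, and DES was at most 0.141 CPM. The adipocyte markers (2 of 3 in the tables) summed to between 0.0921 and 0.262 CPM in DU145 and to between 35.3 and 65.7 CPM in PC3, nearly all FABP4, with PLIN1 at most 0.613 CPM. The leukocyte markers (3 of 4 in the tables) summed to at most 0.792 CPM. The part of these markers in the differences between the lines was not tested.

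**Figure D1:**
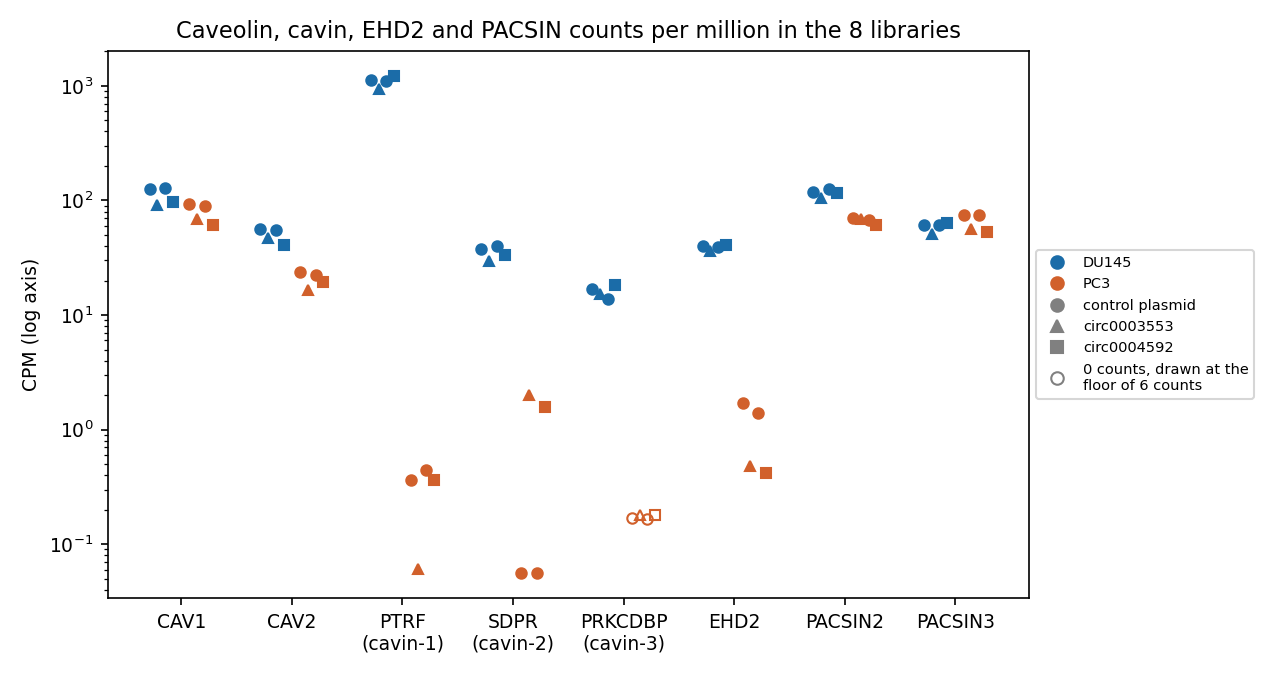
CPM (log axis) of the 8 genes in each library, DU145 in blue and PC3 in orange, with circles for the control plasmid, triangles for circ0003553 and squares for circ0004592. PTRF stands near 1000 CPM in DU145 and at most at 0.446 CPM in PC3, PRKCDBP has 0 counts in PC3 (open symbols, drawn at the floor of 6 counts), and CAV1 and PACSIN3 overlap between the lines.

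PC3 had RNA of both caveolins and little or none of the cavins. Against DU145, 7 of the 8 members were lower in PC3 and PACSIN3 did not pass the test, where 76.8% of all tested genes were called, 38.5% higher and 38.4% lower. Of these 7, PTRF and PRKCDBP passed the filter through DU145 alone, so their direction was fixed by it. Both also enter the median and the count without overlap given below. The differences were unequal in size: CAV1 was 1.41-fold higher in DU145, PTRF 3572-fold. The test was edgeR's quasi-likelihood test over all 8 libraries with a block for each arm and plasmid, so that each PC3 library met the DU145 library treated the same way. A gene was called at an adjusted p (Benjamini-Hochberg over the 17877 genes) under 0.05. The median log2 difference (PC3 minus DU145) over the 8 members was -3.31, with PRKCDBP at its bound, beside -0.01 over all tested genes. The libraries of the lines did not overlap in CPM for 6 of the 8 members, all lower in PC3, against 74.0% of all tested genes in either direction and 37.0% lower in PC3.

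CAV1, the coat protein, differed least among the members that were called. In DU145 it stood at 125 and 129 CPM in the controls of the circ0003553 and circ0004592 arms, 91.7 CPM with circ0003553 and 96.5 CPM with circ0004592. In PC3 the same libraries gave 93.0, 90.3, 68.5 and 61.1 CPM. The lines overlap, because the best PC3 control is above the DU145 library with circ0003553. The mean was 111 CPM ± 19.1 (SD, n = 4) in DU145 and 78.2 CPM ± 15.8 (SD, n = 4) in PC3, and edgeR's log2 difference was -0.50 ± 0.08 (SE, adjusted p = 7.878e-04). CAV2, its partner, stood at 56.3 and 55.4 CPM in the DU145 controls, 47.0 CPM with circ0003553 and 40.7 CPM with circ0004592, and at 23.5, 22.3, 16.7 and 19.6 CPM in the same PC3 libraries. Every DU145 library was above every PC3 library, by 2.43-fold in the means (log2 difference -1.28 ± 0.09 SE, edgeR adjusted p = 1.14e-05). AC002066.1, the gene that overlaps CAV2, had 36 to 75 counts in DU145 and 13 to 23 in PC3.

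PTRF (cavin-1), the scaffold, was the most abundant member in DU145 and all but missing in PC3. It had 51424 and 42469 counts in the DU145 controls, 47426 with circ0003553 and 40005 with circ0004592, which is 1132, 1113, 930 and 1228 CPM. In PC3 the controls had 13 and 16 counts, the circ0003553 library 2 and the circ0004592 library 12, at 0.365, 0.446, 0.0605 and 0.3604 CPM. The log2 difference was -11.81 ± 0.31 (SE, edgeR adjusted p = 2.262e-07), the 25th lowest of the 17877 genes, for a gene that passed the filter through DU145 alone. A level of 3 read pairs, or 6 counts, is taken as the floor of detection, which is between 0.118 and 0.184 CPM over the libraries. PTRF was above it in 3 of the 4 PC3 libraries and under it with circ0003553.

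PRKCDBP (cavin-3) had no count at all in PC3. DU145 held 774 and 529 counts in the controls, 773 with circ0003553 and 595 with circ0004592, or 17.0, 13.9, 15.2 and 18.3 CPM. The 4 PC3 libraries were at 0, so that with the floor of 6 counts per library PRKCDBP was at least 76.4-fold higher in DU145 (edgeR adjusted p = 1.184e-05, also for a gene that passed the filter through DU145 alone). Such intervals and floors cover counting error only, since amplified reads are not independent molecules.

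SDPR (cavin-2), which helps bend the caveolar membrane, was low in PC3 and differed there by plasmid. Its CPM in DU145 was 38.0 and 40.4 in the controls, 29.8 with circ0003553 and 33.4 with circ0004592. The PC3 controls had 2 counts each (0.0562 and 0.0558 CPM, under the floor), and the circRNA libraries had 66 counts (2.00 CPM) and 52 counts (1.56 CPM). Every DU145 library was above every PC3 library, by 38.6-fold in the means, with a log2 difference of -5.46 ± 0.70 (SE, edgeR adjusted p = 2.388e-04). The size of that difference rests on which PC3 libraries enter. In the 4 control libraries alone it was -9.38 ± 0.20 (SE, edgeR adjusted p = 5.273e-21), but there SDPR passed the filter through DU145 alone. Its PC3 controls were under the floor, so the size of that fold is limited by counting and its SE is too small to rely on.

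EHD2, the ATPase of the caveolar neck, was low in all PC3 libraries. It stood at 40.3 and 39.3 CPM in the DU145 controls, 36.3 CPM with circ0003553 and 40.7 CPM with circ0004592. In PC3 it had 61 and 50 counts in the controls, 16 with circ0003553 and 14 with circ0004592 (1.71, 1.39, 0.484 and 0.421 CPM). DU145 was 39.0-fold higher in the means (log2 difference -5.34 ± 0.32 SE, edgeR adjusted p = 5.119e-06), and no library of either line reached the range of the other. In the control libraries alone the log2 difference was -4.68.

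The PACSINs, which bend membrane and also act outside caveolae, were well expressed in both lines. PACSIN2 stood at 118 and 125 CPM in the DU145 controls, 104 CPM with circ0003553 and 115 CPM with circ0004592, and at 70.4, 67.0, 68.7 and 60.9 CPM in the same PC3 libraries. It was 1.73-fold higher in DU145, with no overlap (log2 difference -0.79 ± 0.09 SE, edgeR adjusted p = 1.069e-04). ARFGAP3, whose exons overlap it on the same strand, had 345 to 628 counts in DU145 and 615 to 874 in PC3. PACSIN3 stood at 60.6 CPM in both DU145 controls, 51.1 CPM with circ0003553 and 63.5 CPM with circ0004592, and at 74.9, 74.2, 56.2 and 53.5 CPM in PC3, so that the lines overlap. Its log2 difference over all libraries was 0.12 ± 0.11 (SE, edgeR adjusted p = 0.3271). In the control libraries alone PACSIN3 was called higher in PC3, at 0.29 ± 0.05 (SE, edgeR adjusted p = 3.783e-05). It was also called without the DU145 library of circ0004592 (0.25, edgeR adjusted p = 0.0315) or without the PC3 library of circ0004592 (0.25, edgeR adjusted p = 0.03681).

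**Figure D2:**
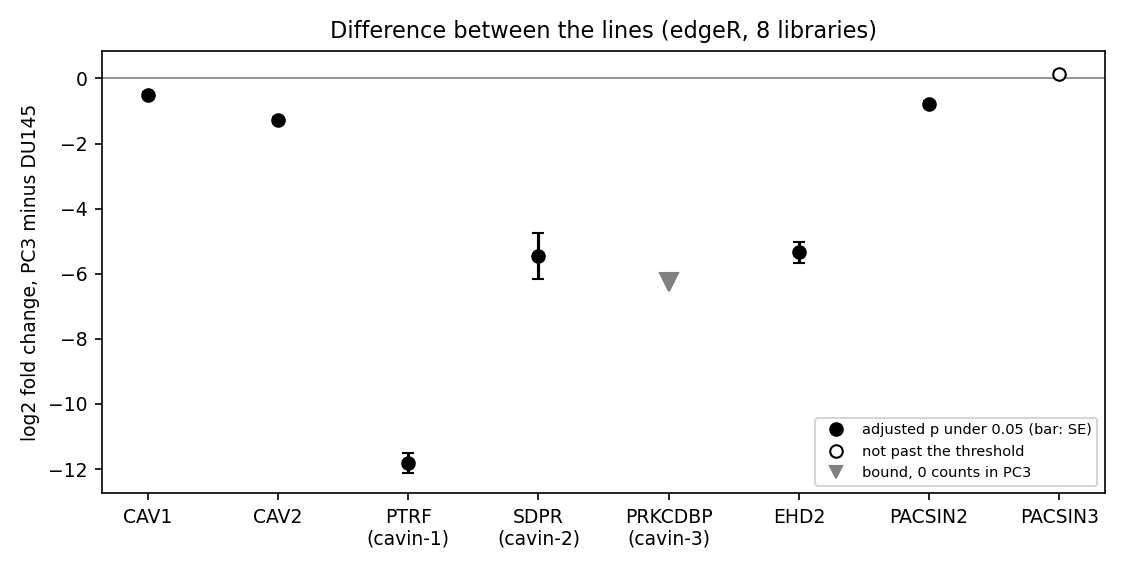
Log2 difference between the lines (PC3 minus DU145) for each gene from edgeR over 8 libraries, with SE bars where they exceed the symbol. PTRF lies at -11.81, SDPR at -5.46, EHD2 at -5.34, and the caveolins and PACSINs between -1.28 and 0.12; the grey triangle is the bound for PRKCDBP, and the open circle did not pass the threshold.

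Levels of different genes were compared per length, as deposited RPKM (reads per kilobase of summed exon length, scaled to the plain library total with no TMM factor). In DU145 the order was PTRF at 287 RPKM ± 26.7, CAV1 at 27.0 ± 4.80, PACSIN2 at 25.3 ± 1.85, PACSIN3 at 21.3 ± 1.59, SDPR at 10.9 ± 1.48, EHD2 at 9.96 ± 0.357, PRKCDBP at 9.59 ± 1.02 and CAV2 at 7.20 ± 1.15 (SD, n = 4 libraries). CAV1 and PACSIN2 overlapped in range, as did SDPR, EHD2 and PRKCDBP, and the other neighbours in this order did not. In PC3 the order was PACSIN3 at 23.5 RPKM ± 4.37, CAV1 at 19.2 ± 4.04, PACSIN2 at 14.6 ± 0.932, CAV2 at 2.96 ± 0.468, SDPR at 0.281 ± 0.309, EHD2 at 0.256 ± 0.168, PTRF at 0.0807 ± 0.0448 and PRKCDBP at 0 (SD, n = 4). There PACSIN3 overlapped CAV1, CAV1 overlapped PACSIN2, and SDPR, EHD2 and PTRF overlapped each other. DU145 thus had PTRF above CAV1 per length in every library, and PC3 had CAV1 above PTRF in every library.

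Other genes of the pathway differed in both directions between the lines, where 76.8% of all tested genes were called. Among relatives of caveolar proteins, 6 of 7 were tested (CAV3, the muscle caveolin, was not), and 1 was higher and 2 lower in PC3. ROR1, a receptor-like kinase that binds caveolar proteins, was lower by edgeR (log2 difference -2.26), as was PACSIN1 (-1.44), and EHD3 was higher (1.08). Of the partners of caveolin, 10 of 12 were tested, with 5 higher and 5 lower in PC3. FYN (2.45) and SRC (1.94), kinases that phosphorylate CAV1, were higher, and ABL2 (-2.01), another kinase, and the growth factor receptor EGFR (-1.80) were lower. Of flotillins and stomatins, scaffold proteins of other membrane domains, 1 was higher and 4 were lower of 6 tested, with FLOT2 at -2.63, STOM at -2.59, ERLIN1 at -1.37 and FLOT1 at 1.12. Clathrin and AP2 genes, which serve the other main route of endocytosis, split into 6 higher and 5 lower of 13, led by the adaptor DAB2 (2.11), PICALM (-1.92), EPN1 (1.69) and the AP2 subunit AP2B1 (-1.41). The list medians were -0.33, -0.12, -1.07 and 0.12 in this order, beside -0.01 over all tested genes.

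Within PC3, cavin-2 rose from near nothing while EHD2, CAV1 and PACSIN3 fell, with either circRNA. With circ0003553, 1 member was higher (SDPR), 5 were lower (CAV1, CAV2, PTRF, EHD2 and PACSIN3), PACSIN2 was not called and PRKCDBP stayed at 0, where 28.8% of all tested genes were called, 14.3% higher and 14.5% lower. With circ0004592, 1 was higher (SDPR), 3 were lower (CAV1, EHD2 and PACSIN3) and 3 were not called (CAV2, PTRF and PACSIN2), with PRKCDBP again at 0, where 25.7% of all genes were called, 12.3% higher and 13.5% lower. The median log2 change of the 7 members with counts was -0.42 with circ0003553 and -0.23 with circ0004592, beside -0.03 over all tested genes in both. Each comparison set 1 circRNA library against the same 2 controls of the line in a fit of 6 groups of line and plasmid (2 residual degrees of freedom), so the comparisons of a line share their controls, and a lone library borrows its spread from them. In bulk RNA of this kind, fewer cells that express a gene and less RNA per cell cannot be told apart.

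SDPR in PC3 went from 2 counts in each control to 66 with circ0003553 and 52 with circ0004592. Against the control of its own arm the ratio of CPM was 35.5 (95% counting interval 5.95 to 1445) with circ0003553 and 28.0 (4.60 to 1148) with circ0004592. In edgeR's test the log2 change was 5.08 ± 0.44 (SE, adjusted p = 1.78e-09) and 4.72 ± 0.46 (SE, adjusted p = 2.117e-08). Both circRNA libraries were above both controls, and both remained far below the lowest DU145 library (29.8 CPM). AC098617.1, on the opposite strand, had 0 counts in both PC3 controls, 14 with circ0003553 and 2 with circ0004592, so SDPR had more counts than it in each of the 4 libraries. The 10 interferon-stimulated genes MX1, IFIT1, IFIT2, IFIT3, OAS1, OAS2, OAS3, ISG15, RSAD2 and BST2 were all called higher (10 of 10) by edgeR in both PC3 comparisons. They summed to 199 and 198 CPM in the PC3 controls, 13520 CPM with circ0003553 and 13110 CPM with circ0004592. In DU145 they also rose, by far less. There they summed to 142.9 and 138.5 CPM in the controls, 181.7 CPM with circ0003553 and 198.1 CPM with circ0004592. The median log2 change of these genes in DU145 was 0.74 with circ0003553 and 0.50 with circ0004592, beside 0.00 over all tested genes. The adipocyte marker FABP4 fell in these libraries, from 65.2 and 61.8 CPM in the controls to 36.9 CPM with circ0003553 (log2 change -0.78, edgeR adjusted p = 3.023e-07) and 34.8 CPM with circ0004592 (-0.87, edgeR adjusted p = 6.32e-08). The fibroblast marker COL1A1 fell with circ0003553 (-0.32, edgeR adjusted p = 0.03981) and stood at -0.22 with circ0004592 (edgeR adjusted p = 0.1762), and the endothelial marker PECAM1 stood at 0.03 and -0.01. The part of these genes in the changes of the members was not tested.

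EHD2 moved the other way in the same libraries. It fell from 61 counts to 16 with circ0003553 and from 50 to 14 with circ0004592 in the own arm, ratios of 0.282 (95% counting interval 0.112 to 0.629) and 0.302 (0.110 to 0.717). The log2 change in edgeR was -1.68 ± 0.33 (SE, adjusted p = 3.544e-04) and -1.88 ± 0.34 (SE, adjusted p = 1.574e-04). A log2 scale of RPKM plus 1 shrank these low genes to 0.66 and 0.54 for SDPR and to -0.32 and -0.34 for EHD2, all still called by limma.

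CAV1 fell in both PC3 comparisons, from 93.0 to 68.5 CPM with circ0003553 (0.737 of its own control) and from 90.3 to 61.1 CPM with circ0004592 (0.677 of its own control). The log2 change in edgeR was -0.42 ± 0.07 (SE, adjusted p = 2.88e-05) and -0.58 ± 0.07 (SE, adjusted p = 3.05e-07). CAV2 fell with circ0003553 (0.710 of its own control, -0.46 ± 0.10 SE, edgeR adjusted p = 6.435e-04). With circ0004592 it was at 0.876 of its own control (-0.23 ± 0.09 SE, edgeR adjusted p = 0.0717) and did not pass. PACSIN3 fell with both, from 74.9 to 56.2 CPM (-0.41 ± 0.07 SE, edgeR adjusted p = 7.857e-05) and from 74.2 to 53.5 CPM (-0.48 ± 0.07 SE, edgeR adjusted p = 1.102e-05). Both circRNA libraries lay below both controls for CAV1, CAV2 and PACSIN3.

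PACSIN2 with circ0003553 stood at 0.975 of its own control (log2 change -0.001 ± 0.07 SE, unadjusted p = 0.9882 in edgeR's test). With circ0004592 it was at 0.908 of its own control (-0.17 ± 0.07 SE, edgeR adjusted p = 0.07072), and without the PC3 control of the circ0004592 arm it was called (-0.21, edgeR adjusted p = 0.03736). PTRF, which had at most 16 counts in any PC3 library, was called lower with circ0003553 (-2.68 ± 0.65 SE, edgeR adjusted p = 0.003802) on 2 counts against 13 and 16. The ratio to its own control was 0.166 with a 95% counting interval of 0.00364 to 1.32, and DESeq2 did not call it (adjusted p = 0.05744), nor did limma on RPKM plus 1 (adjusted p = 0.1422). With circ0004592 PTRF was at 12 counts against 16 (ratio 0.808, interval 0.231 to 2.65, edgeR adjusted p = 0.8509).

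**Figure D3:**
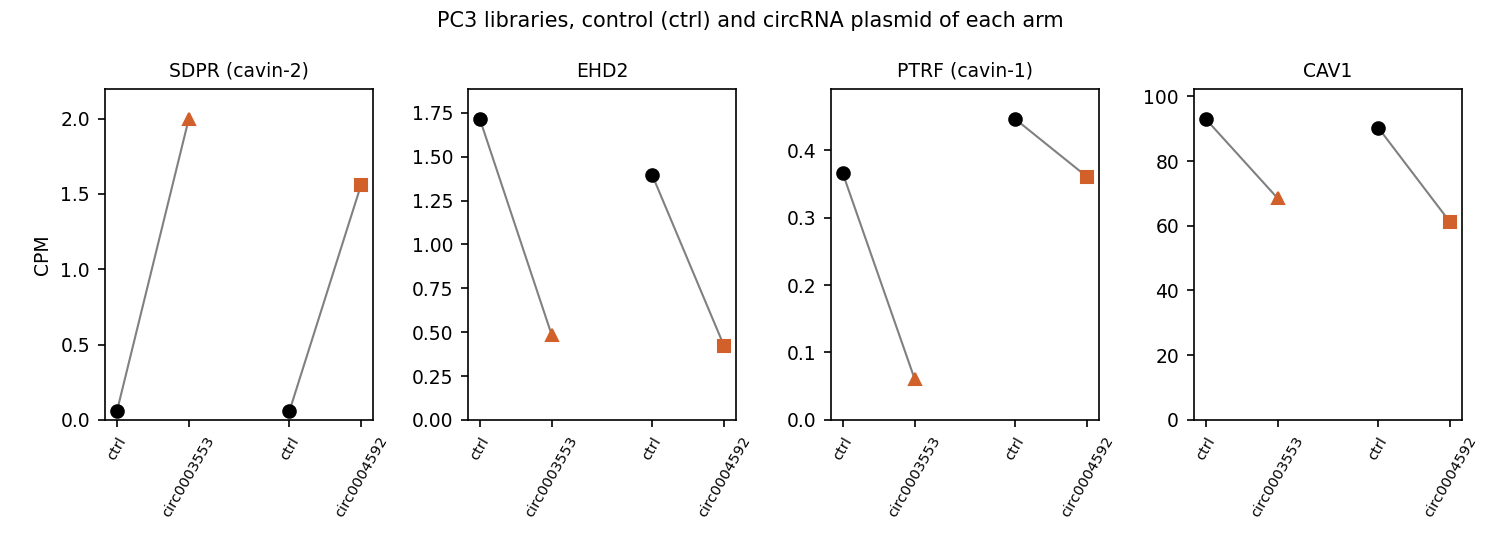
CPM of SDPR, EHD2, PTRF and CAV1 in the 4 PC3 libraries, each circRNA library (orange) joined by a line to the control plasmid of its own arm (black), on axes that start at 0 and differ between panels. SDPR rises from about 0.056 to 2.00 and 1.56 CPM, EHD2 drops to 0.484 and 0.421 CPM, and CAV1 drops to 68.5 and 61.1 CPM.

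In DU145, where the scaffold was abundant, the caveolins fell and no member was called higher. With circ0003553, 6 of 8 members were lower (CAV1, CAV2, PTRF, SDPR, PACSIN2 and PACSIN3), where 10.9% of all tested genes were called, 4.62% higher and 6.27% lower. With circ0004592, 2 of 8 were lower (CAV1 and CAV2), where 10.4% of all genes were called, 5.93% higher and 4.51% lower. The median log2 change of the members was -0.25 and -0.02, beside 0.00 over all tested genes. These counts depend on the tool. DESeq2 called CAV1 and PTRF alone with circ0003553, and limma on deposited RPKM called 0 genes with either circRNA in DU145 (with 0.1 added, 3448 and 3877 genes, and 6 and 2 members, had an unadjusted p under 0.05).

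CAV1 in DU145 went from 125 to 91.7 CPM with circ0003553 (0.736 of its own control) and from 129 to 96.5 CPM with circ0004592 (0.747 of its own control). The log2 change in edgeR was -0.47 ± 0.06 (SE, adjusted p = 3.444e-05) and -0.40 ± 0.06 (SE, adjusted p = 2.887e-04). CAV2 was at 0.834 and 0.734 of its own control, with log2 changes of -0.25 ± 0.08 (SE, edgeR adjusted p = 0.03646) and -0.46 ± 0.08 (SE, edgeR adjusted p = 6.84e-04). Both circRNA libraries were below both controls for CAV1 and CAV2, as in PC3.

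PTRF in DU145 stood at 930 CPM with circ0003553, below both controls (-0.27 ± 0.05 SE, edgeR adjusted p = 0.001451), and at 1228 CPM with circ0004592, above both (0.13, edgeR adjusted p = 0.1169). SDPR, which rose in PC3, was lower with circ0003553 in DU145 (-0.40 ± 0.09 SE, edgeR adjusted p = 0.007412) and at -0.23 with circ0004592 (edgeR adjusted p = 0.1318). PACSIN2 (-0.23, edgeR adjusted p = 0.02522) and PACSIN3 (-0.25, edgeR adjusted p = 0.01948) were lower with circ0003553 and not called with circ0004592 (-0.08 and 0.07). EHD2 (-0.13 and 0.03) and PRKCDBP (-0.03 and 0.24) were called with neither. The calls with circ0003553 lean on both controls: 3 members passed without the control of the circ0003553 arm and 2 without that of the circ0004592 arm.

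CAV1 was lower with circRNA plasmid in every pair: each of the 4 circRNA libraries lay below its own control, of the same line and arm, by ratios of 0.677 to 0.747. A fit added after the data were seen set all 4 circRNA libraries against their own controls, with 4 blocks of line and arm (3 residual degrees of freedom). It gave CAV1 a log2 change of -0.47 ± 0.08 (SE, unadjusted p = 3.391e-04, edgeR adjusted p = 0.09621), lower in 4 of 4 pairs, which missed the threshold. DESeq2 called it in the same design (adjusted p = 1.08e-06), and so did edgeR with no filter on low counts (adjusted p = 0.00811). CAV2 stood at -0.35 ± 0.08 (SE, edgeR adjusted p = 0.2716), also lower in 4 of 4 pairs. SDPR, with values on both sides of 0 in the lines, stood at 0.55 ± 0.62 (SE, edgeR adjusted p = 0.752). EHD2 stood at -0.49, PACSIN3 at -0.27, PTRF at -0.24, PACSIN2 at -0.12 and PRKCDBP, from DU145, at 0.11. edgeR called none of the 8 members in this fit (3 had an unadjusted p under 0.05, CAV1, CAV2 and PACSIN3), where 0.179% of all tested genes were called, 0.145% higher and 0.0336% lower. FABP4 was called lower in this fit (-0.82, edgeR adjusted p = 0.03353). It was at most 0.132 CPM in DU145, at or under the floor in each library, so its value rests on PC3. Of the 10 interferon-stimulated genes, 2 were called higher and 8 were not called. The 2 were RSAD2 (9.015, edgeR adjusted p = 0.02514) and OAS2 (5.967, edgeR adjusted p = 0.02514). In DU145 they reached at most 0.399 and 0.627 CPM.

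**Figure D4:**
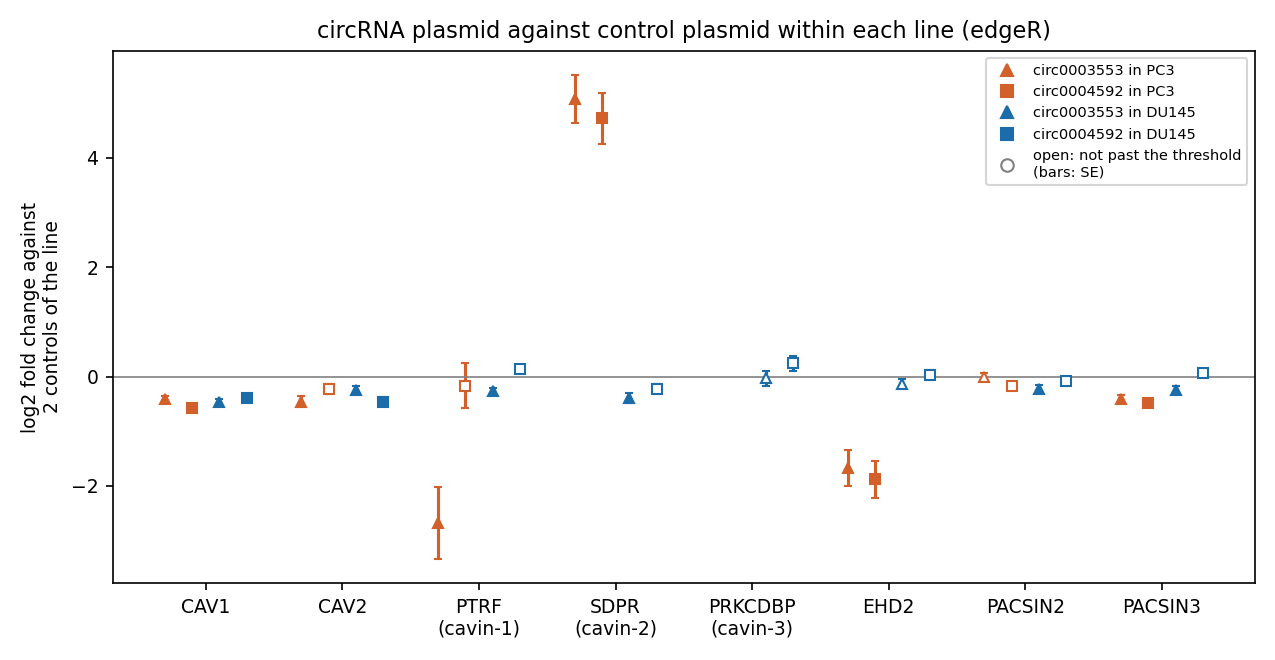
Log2 change with each circRNA against the 2 controls of the line (edgeR, bars are SE, open symbols did not pass the threshold), PC3 in orange and DU145 in blue. SDPR stands at 5.08 and 4.72 in PC3 and below 0 in DU145, EHD2 is filled (called lower) in PC3 and open in DU145, and CAV1 lies between -0.58 and -0.40 in all 4 comparisons; PRKCDBP has no PC3 value because it was at 0 counts.

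The change with a circRNA was then compared between the lines by the interaction term of the same fit (change in PC3 minus change in DU145). With circ0003553, SDPR (5.47 ± 0.44 SE, adjusted p = 1.112e-09), EHD2 (-1.54 ± 0.35 SE, adjusted p = 0.001875) and PTRF (-2.41 ± 0.67 SE, adjusted p = 0.01584) differed between the lines in edgeR, where 22.6% of all tested genes did, 12.1% upward and 10.5% downward. With circ0004592 it was SDPR (4.96 ± 0.47 SE, adjusted p = 2.358e-08), EHD2 (-1.91 ± 0.35 SE, adjusted p = 3.11e-04) and PACSIN3 (-0.55 ± 0.10 SE, adjusted p = 2.101e-04), where 20.3% of all genes did, 9.79% upward and 10.5% downward. The PTRF difference missed the threshold without the PC3 control of the circ0004592 arm (edgeR adjusted p = 0.0505) and in DESeq2 (adjusted p = 0.1079), and it turned to 0.12 in limma on RPKM plus 1. The EHD2 differences were not called in that limma fit either (-0.22 and -0.32). For the caveolins no difference between the lines was called: CAV1 stood at 0.05 ± 0.09 (SE) with circ0003553 and -0.19 ± 0.09 (SE) with circ0004592, and CAV2 at -0.21 ± 0.12 (SE) and 0.23 ± 0.12 (SE). PACSIN2 with circ0003553 (0.22 ± 0.09 SE, edgeR adjusted p = 0.09344) was called without the PC3 control of the circ0003553 arm (edgeR adjusted p = 0.04647). PACSIN3 with circ0003553 stood at -0.16, PTRF with circ0004592 at -0.30 and PACSIN2 with circ0004592 at -0.10, none of them called. PRKCDBP, at 0 in PC3, gave no value.

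The relatives and partners of caveolar proteins moved in both directions in the circRNA comparisons. Counts of these and the next lists stand beside the 28.8% and 25.7% of all tested genes called in PC3 with circ0003553 and circ0004592. The shares were 10.9% and 10.4% in DU145, and 22.6% and 20.3% for the interaction term. In PC3, the EHD2 paralog EHD4 rose while EHD2 fell, from 36.5 and 41.9 CPM in the controls to 111 CPM with circ0003553 (edgeR log2 change 1.50) and 101 CPM with circ0004592 (1.37). ROR1 fell (-0.93 and -1.27), from 12.1 and 12.7 CPM to 6.51 and 5.17 CPM, and EHD1, another EHD2 paralog, rose with circ0003553 (0.35). In all, 2 relatives were higher and 1 lower of 6 tested with circ0003553, and 1 was higher and 1 lower with circ0004592. Of 10 partners, 1 was higher and 4 were lower with circ0003553 in PC3, and 1 was higher and 5 were lower with circ0004592. The receptor TGFBR1 (-1.02 and -0.70), the integrin subunit ITGB1 (-0.31 and -0.28), SRC (-0.28 and -0.26), EGFR (-0.21 and -0.29) and the kinase ABL2 (0.72 and 0.63) were called with both. By the interaction term, 3 of 6 relatives with circ0003553 (2 upward, 1 downward) and 2 of 6 with circ0004592 (1 upward, 1 downward) changed differently in the lines, among them EHD4 (1.64 and 1.20) and ROR1 (-0.69 and -0.97) with both and EHD1 (0.56) with circ0003553. Of 10 partners, 5 with circ0003553 (3 upward, 2 downward) and 4 with circ0004592 (all downward) did, led by TGFBR1 (-0.97 and -0.76).

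Flotillins and stomatins in PC3 gave 0 higher and 3 lower of 6 with circ0003553, and 1 higher (STOM, 0.48) and 2 lower with circ0004592. ERLIN1 (-0.28 and -0.30) and ERLIN2 (-0.28 and -0.41) fell with both, and FLOT1 (-0.17) fell with circ0003553. Clathrin and AP2 genes gave 1 higher and 3 lower of 13 with each circRNA. DAB2 rose (0.60 and 0.50) and the clathrin light chain CLTB fell (-0.19 and -0.29) with both, as did the adaptor EPN1 (-0.17 and -0.21). CLTCL1 (-0.52) with circ0003553 and AP2B1 (-0.29) with circ0004592 also fell. By the interaction term, DAB2 (0.80 and 0.87) and ERLIN1 (-0.38 and -0.37) differed between the lines with both circRNAs. In DU145 with circ0003553, 1 of 6 relatives was lower (EHD1, -0.21), 1 of 10 partners was higher (ABL2, 0.28) and 2 were lower (DNM2, -0.28, the dynamin that cuts vesicles from the membrane, and FLNA, -0.25, an actin linker of caveolin), 1 of 6 flotillins and stomatins was lower (FLOT1, -0.48). In the same comparison, 1 of 13 clathrin and AP2 genes was higher (CLTA, 0.27) and 3 were lower (CLTB, -0.27, EPN1, -0.23, and AP2M1, -0.17). In DU145 with circ0004592, 1 relative was higher (EHD1, 0.28) and 1 lower (ROR1, -0.29), 2 partners were higher (ABL2, 0.47, and FLNA, 0.20) and 1 was lower (ITGB1, -0.18). There, 1 of the flotillins and stomatins was higher (FLOT2, 0.27), and 2 clathrin and AP2 genes were higher (CLTA, 0.20, and AP2B1, 0.19).

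Genes whose levels ran most like those of CAV1 and PTRF were listed by Pearson's r of log2 CPM over the 8 libraries, among 12297 genes with a mean of at least 5 CPM. The libraries share their lines and arms, so r is a description. For CAV1 the 5 closest were MYLK (0.9904), a kinase of myosin light chain, PANK3 (0.9837), AC092159.2 (0.9835), TGFB2-AS1 (0.9831) and ELFN2 (0.9820). MYLK was the single gene above 0.99 for CAV1, and its mean was 87.8 CPM in DU145 and 63.2 CPM in PC3. For PTRF the 5 closest were RP11-255H23.4 (0.9997), PDLIM2 (0.9996), JAG2 (0.9988), a Notch ligand, NEFM (0.9987), a neurofilament protein, and DNAJA4 (0.9987), and 587 genes were above 0.99. NEFM stood at 51.3 CPM in DU145 and 0.0360 CPM in PC3.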

How the data were processed

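Total RNA of 8 libraries was depleted of ribosomal RNA and sequenced in pairs on a NovaSeq from stranded libraries with molecular identifiers, per the labels' protocols. The authors trimmed with Trimmomatic 0.36 and counted with featureCounts (Subread 1.5.1), with hg38 as the build and edgeR 3.12.1 among the tools, per the submitters' processing notes. The aligner, annotation release, strand setting and use of identifiers are not given in the sources used here. The deposited tables hold raw read counts per gene and, separately, RPKM per gene, 1 pair of tables per arm. The deposited RPKM equal count over length and library total (largest difference 4.7e-11). Of 36779 genes, 5511 stood in 1 table alone (at most 14 counts there) and were set to 0 in the other.

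The 17877 genes that reached 1 CPM in 2 or more libraries were tested on the counts with edgeR 4.0.16 in R 4.3.3 (TMM factors 0.967 to 1.024, quasi-likelihood F test), Benjamini-Hochberg threshold 0.05. The script was tested on simulated data. The SE is the absolute log2 change over the square root of F and can be too small for low counts. The fits were 4 blocks of arm and plasmid for the lines, and 6 groups of line and plasmid for the circRNAs and interactions. Counts are mostly even (64.9% to 66.1% of counts from 1 to 20), so 3 read pairs were taken as 6 counts. Totals of 33444940 to 49926342 counts set the precision. The controls of a line correlated over genes at r of 0.9949 (DU145) and 0.9939 (PC3).

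The members and lists were chosen with earlier results of these data known. The text names all 8 members in every comparison, up to 4 called genes from each list for the lines and each circRNA within a line, fewer for the interactions (relatives of caveolar proteins, caveolin partners, flotillins and stomatins, clathrin and AP2) in order of absolute change, the 5 genes closest to CAV1 and to PTRF, and genes whose exons overlap a member's. Outside that rule, the fifth called partner in PC3 (EGFR or SRC) and the moving cell type markers were named after their values were seen. Alternatives were DESeq2 size factors, DESeq2 1.42.0, no filter, a filter of 20 CPM, limma 3.58.1 on log2 of RPKM plus 0.1 or 1, the control libraries alone, no block, libraries left out and own-control folds with a prior count of 2. Some marker values are not reported here.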

Additional observations from a re-analysis of the deposited data

Results flagged for a closer look

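6 values stood out because the change with a circRNA differed between the lines by the interaction term of edgeR (log2 change in PC3 minus that in DU145). With circ0003553 these were SDPR at 5.47 (adjusted p = 1.112e-09), EHD2 at -1.54 (adjusted p = 0.001875) and PTRF at -2.41 (adjusted p = 0.01584). With circ0004592 they were SDPR at 4.96 (adjusted p = 2.358e-08), EHD2 at -1.91 (adjusted p = 3.11e-04) and PACSIN3 at -0.55 (adjusted p = 2.101e-04). SDPR rose in PC3 and was below both controls in DU145 with either circRNA, on 66 and 52 counts in PC3 against 1519 and 1087 in DU145. The PTRF value rests on 2 counts in the PC3 library of circ0003553.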

How the results depend on the processing

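The titles carry no replicate numbers; libraries were paired by arm, in the line fit and in the added fit over both lines. Of 611 single-gene values under the alternatives, 550 kept their direction and side of the threshold, 35 lost the call, 9 gained it, 12 changed sign and 5 untested own-control folds moved by more than the spread; the cause was not tested. With DESeq2 the genes called were 2565 (5152 by edgeR) for circ0003553 and 2266 (4597) for circ0004592 in PC3, 820 (1947) and 835 (1866) in DU145, and 2016 (4047) and 1807 (3621) for the interactions, and members called with circ0003553 in DU145 were 2 (6). The split of higher to lower calls with circ0003553 was 1538 to 1027 in PC3 (2564 to 2588 by edgeR) and 219 to 601 in DU145 (826 to 1121), and 1355 to 661 (2170 to 1877) in the interaction. With circ0004592 it was 565 to 270 in DU145 (1060 to 806), and in the interaction 974 to 645 and 1181 to 808 in limma with 0.1 or 1 added (1751 to 1870). The added fit over both lines called 32 genes (26 higher, 6 lower) and 0 members with edgeR, 191 genes (107 higher, 84 lower) and 1 member with DESeq2, and 549 and 1 with no filter. A filter of 20 CPM, which tests fewer genes, left 6940 line calls (13735). limma on RPKM plus 0.1 called 3305 and 2641 genes in PC3, and 1961 and 1619 for the interactions. In DU145 it called 0 genes and 0 members with either pseudocount (3448 and 3877 genes, and 6 and 2 members, at unadjusted p under 0.05 with 0.1 added; 3620 and 3999 genes, and 6 and 3 members, with 1 added). With 1 added, the interactions gave 2307 and 1989 genes, and 1 member with circ0003553. Leaving out 1 library gave 12660 to 13050 genes and 7 to 8 members for the lines, 4666 to 4765 genes and 6 members for circ0003553 and 4105 to 4288 genes and 4 to 5 members for circ0004592 in PC3, 782 to 2676 genes and 2 to 6 members and 533 to 2531 genes and 2 members in DU145, and 3088 to 4253 genes and 2 to 4 members and 2646 to 3837 genes and 3 members for the interactions. The sign changes were PACSIN2 with circ0003553 in PC3 (0.011 with DESeq2 and with its size factors, 0.034 without PC3 control replicate 1, the circ0003553 arm, while -0.037 without replicate 2 kept the sign), PRKCDBP with circ0003553 in DU145 (0.007 and 0.005 in limma, 0.129 without DU145 control replicate 1, while -0.169 without replicate 2 kept the sign), EHD2 with circ0004592 in DU145 (-0.023 and -0.021 in limma), and the circ0003553 interaction of CAV1 (-0.002 with the 20 CPM filter, -0.012 and -0.006 in limma) and PTRF (0.120 in limma on RPKM plus 1), of which PTRF alone was called by edgeR. Genes under the floor of 6 counts, as SDPR in PC3 controls, have folds limited by counting.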
